A study of Homo sapiens with 6 samples.

Results

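A set of 40 genes that encode regulators of pre-mRNA splicing was followed in HCT116 cells after knockdown of the long noncoding RNA GMDS-AS1. The members were taken by symbol: 10 SR proteins, 2 TRA2 proteins, 18 heterogeneous nuclear ribonucleoproteins (hnRNPs), 2 polypyrimidine tract binding (PTB) proteins, 4 factors of the 3' splice site and branch point, and 4 CLK kinases. All 40 symbols were found once among the 60662 genes with a value. The rule names families and uses no threshold on the measured levels, but it was written with earlier results of these data known. HCT116 is an established human colorectal carcinoma cell line. The shCtrl group was transduced with a control short hairpin plasmid and is otherwise labelled wild type, and the GMDS-AS1 KD group carried GMDS-AS1 shRNA2. Each group had 3 libraries of poly-A selected RNA, labelled as biological replicates 1 to 3. The knockdown rests on 1 hairpin in 1 cell line, and both groups went through lentiviral transduction. Expression was given in TPM, the transcript unit that is scaled to length and to the library total, so that levels can be compared between genes.

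SR proteins carry arginine and serine repeats, bind exonic sequences and recruit the splicing machinery to nearby splice sites. hnRNPs coat nascent transcripts, and many of them, like the PTB proteins, repress the exons they bind. U2AF marks the 3' end of the intron for the U2 snRNP, of which SF3B1 is a subunit, and CLK kinases phosphorylate the SR repeats. Many of these genes also regulate their own RNA through exons or introns that expose the transcript to nonsense-mediated decay. In the GENCODE v29 annotation, 31 of the 40 members (77.5%) have at least 1 transcript classed as a decay target, compared with 35.65% of the 19951 protein-coding genes. Another class, the retained intron transcripts, is annotated for 31 of 40 members as well (77.5%), compared with 46.17% of protein-coding genes. The genes compared were not matched for expression or for the number of annotated transcripts, which was 1 for HNRNPA0 and 50 for HNRNPH1. Each TPM used here is a sum over the transcripts of a gene, so coding and decay-bound forms cannot be told apart.

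The 6 libraries held 24381 to 26402 genes above 0. TPM keeps no read total, and no counting error could be given. GMDS-AS1 itself, listed as GMDS-DT, had 1.66, 2.21 and 1.34 TPM in shCtrl and 0.88, 0.91 and 0.79 TPM in KD libraries. The log2 fold change of -0.41 passed the test (limma adjusted p = 0.0412), but not with a replicate block (limma adjusted p = 0.0523). The keratins and other epithelial markers of the line (8 genes) summed to 9359 to 9813 TPM in shCtrl and 3638 to 3747 TPM in KD cells. This drop was in the keratins, since KRT8 and KRT18 fell more than 2-fold and KRT19 fell by 0.26 on the log2 scale. EPCAM and CDH1 did not pass the test, at 0.18 and 0.13, CLDN4 rose by 0.29 with the trimmed mean scaling, and CEACAM5 and VIL1 were near 0 in both groups. Fibroblast markers summed to 13.5 to 15.0 TPM in shCtrl and 10.2 to 11.3 TPM in KD cells, nearly all of it COL1A1, and leukocyte markers to 11.7 to 12.8 and 8.13 to 9.42 TPM, with PTPRC at 0 in every library. The part of these shifts in the results on splicing regulators was not tested, and in bulk RNA fewer cells of a type and less RNA per cell cannot be told apart.

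All 40 members reached 0.5 TPM in 3 or more libraries, the filter on low values, and were among the 16901 genes tested. Their levels spanned 2 orders of magnitude. HNRNPA1, an abundant shuttling hnRNP, was the highest in shCtrl cells at 1222 ± 63.4 TPM (SD, n = 3). HNRNPC, which binds uridine tracts in introns, followed at 798 ± 31.8 TPM (SD, n = 3), and HNRNPH1, which binds guanosine-rich RNA, at 660 ± 26.3 TPM (SD, n = 3). The lowest were the kinase gene CLK4 at 12.1 ± 1.3 TPM (SD, n = 3), HNRNPLL at 20.2 ± 0.234 TPM (SD, n = 3) and PTBP3 at 22.4 ± 0.701 TPM (SD, n = 3). Summed over the 40 members, the level as deposited was 8555 ± 135 TPM (SD, n = 3) in shCtrl and 8573 ± 95.0 TPM (SD, n = 3) in KD cells, a difference smaller than the spread between libraries. With libraries scaled by a trimmed mean, as in the tests that follow, the sums were 7844 ± 115 and 9349 ± 24.9 TPM (SD, n = 3). The total was then 1.19 times higher in KD cells, so whether it differed beyond the spread depends on the scaling. Replicates of a member lay close together. The median within-group SD on the log2 scale was 0.050 for the members and 0.11 for all genes tested. The latter include genes near the filter of 0.5 TPM, and the spread of genes at the members' levels was not computed.

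The number of members called in each direction depended on how libraries were scaled to each other. With libraries scaled by a trimmed mean of log ratios, 25 members (62.5%) rose and 7 (17.5%) fell in KD cells at an adjusted p under 0.05 from limma. Over all genes tested, 28.7% rose and 25.8% fell under this rule. Among the 7900 genes with a mean of at least 10 TPM, a level that 39 of the 40 members reached, 45.8% rose and 24.8% fell. With TPM as deposited, 9 members (22.5%) rose and 18 (45%) fell, beside 16.3% and 40.3% of all genes and 26.4% and 42.5% of the genes of at least 10 TPM. The median log2 fold change of the members moved from 0.17 with the trimmed mean to -0.08 as deposited, and that of all genes from 0.00 to -0.20. The factors of the KD libraries were lower by 0.25 on the log2 scale, which is close to the offset between both scales for each member.

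The account below therefore turns on the members called in the same direction under each of 4 scalings, which also included the upper quartile and the median of ratios. The factors of these additional scalings lay between those of TPM as deposited and the trimmed mean, so they removed no further calls. Over all genes, the 2756 that rose under all 4 scalings were those that rose as deposited. The 4355 that fell were those that fell with the trimmed mean. Of the 40 members, 9 (22.5%) rose under all 4 scalings, namely SRSF2, SRSF3, SRSF9, HNRNPA1, HNRNPH2, HNRNPM, U2AF2, SF3B1 and CLK3. Another 7 (17.5%) fell under all 4 scalings, namely TRA2B, HNRNPH1, HNRNPLL, PTBP3, RBM39, CLK2 and CLK4. Over all genes tested, 16.3% rose and 25.8% fell under the 4 scalings. The members' share of rises was thus above the share of all genes. It was below the 26.4% of genes of at least 10 TPM that rose as deposited, though most members lay well above that floor. The members' share of falls was below that of all genes. It was also below the 24.8% of genes of at least 10 TPM that fell with the trimmed mean. PTBP3 alone changed at least 2-fold with the trimmed mean, where 7.17% of all genes did.

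**Figure D1:**
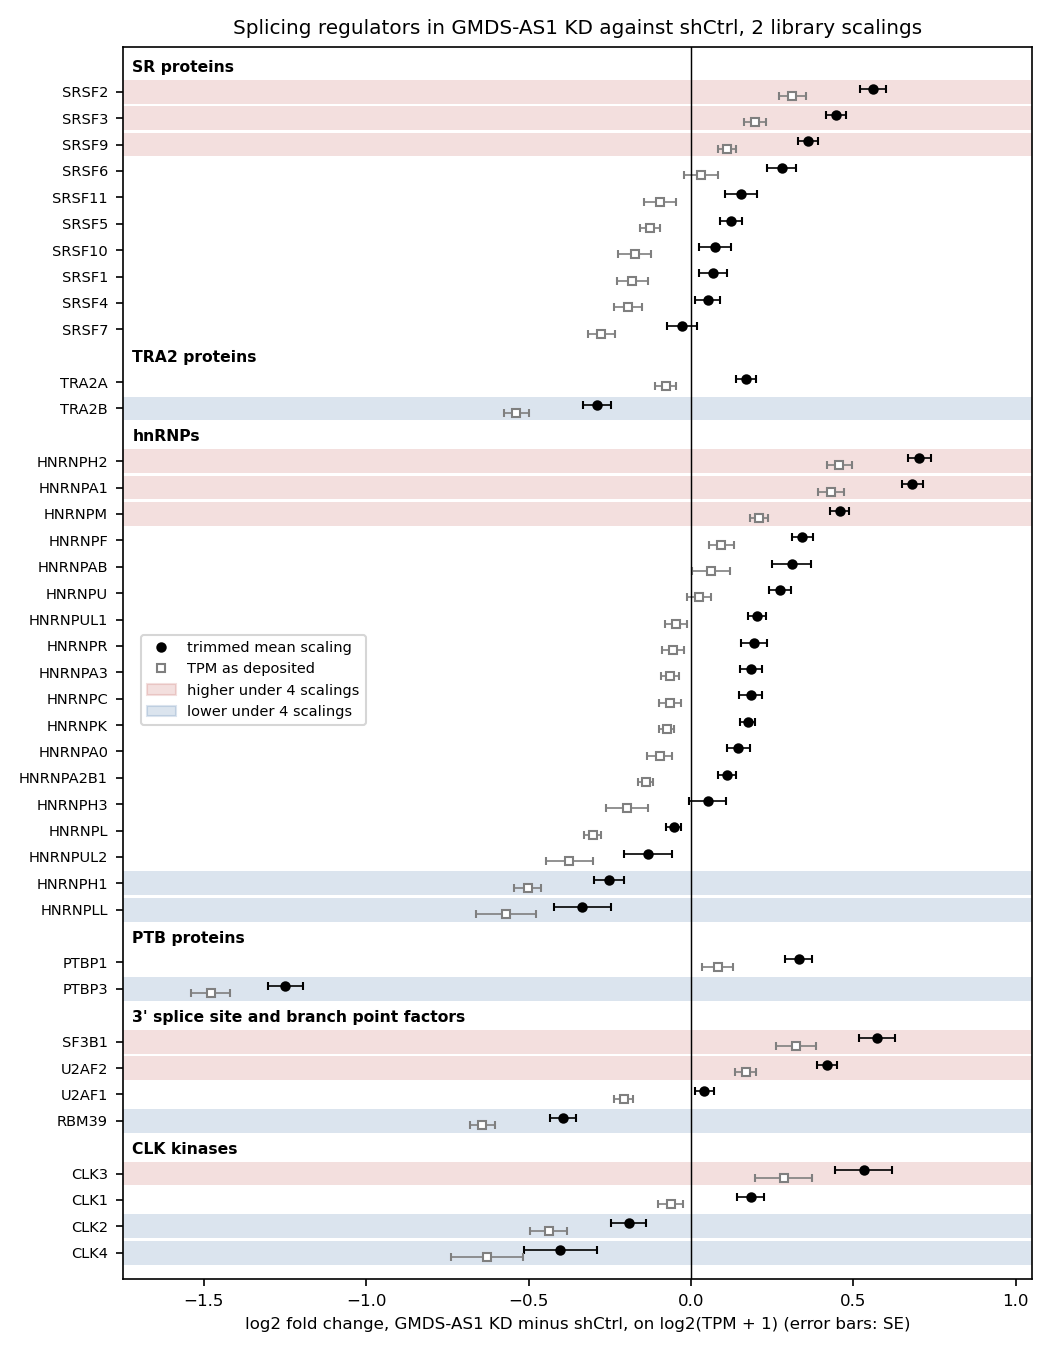
Log2 fold change of the 40 members in GMDS-AS1 KD against shCtrl cells (x axis, log2(TPM + 1) scale, n = 3 per group), grouped by role, with libraries scaled by the trimmed mean (filled circles) and with TPM as deposited (open squares), error bars showing the SE. Red bands mark the 9 members that rose and blue bands the 7 that fell under all 4 scalings, and the unshaded members were not called in 1 direction under each scaling.

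Among the 10 SR proteins, 6 (60%) rose and none fell with the trimmed mean, whereas 3 (30%) rose and 5 (50%) fell as deposited. With the trimmed mean 28.7% of all genes rose and 25.8% fell, and 45.8% and 24.8% of genes of at least 10 TPM. As deposited the shares were 16.3% and 40.3% of all genes, and 26.4% and 42.5% of genes of at least 10 TPM. SRSF2, which binds exonic enhancers and also acts in transcription elongation, was at 302, 293 and 310 TPM in shCtrl and at 364, 364 and 397 TPM in KD libraries. Every KD library lay above every shCtrl library. Its log2 fold change was 0.56 (SE 0.041, limma adjusted p = 4.30e-05), and 0.31 as deposited.

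SRSF3, the smallest classical SR protein, which also takes part in mRNA export and polyadenylation, was at 169, 179 and 173 TPM in shCtrl and at 197, 196 and 205 TPM in KD libraries. The groups did not overlap. Its log2 fold change was 0.45 (SE 0.030, limma adjusted p = 2.73e-05), and 0.20 as deposited. SRSF9 rose by less, from 234 ± 5.79 to 252 ± 2.80 TPM (SD, n = 3), with a log2 fold change of 0.36 (limma adjusted p = 8.47e-05) and 0.11 as deposited.

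SRSF1, the prototype of the family and a regulator of alternative 5' splice sites, did not hold one direction. It was listed at 159, 161 and 162 TPM in shCtrl and at 139, 135 and 152 TPM in KD libraries, so the deposited values of the KD group were all lower. The log2 fold change was 0.07 with the trimmed mean (SE 0.042, limma adjusted p = 0.215) and -0.18 as deposited (SE 0.047, limma adjusted p = 0.0148). SRSF1 also shares 1890 exon bases on its own strand with an unnamed gene listed at 25.2 TPM in shCtrl and 24.1 TPM in KD cells, and how reads were divided between the genes is not given.

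SRSF7, a paralog of SRSF3 with a zinc knuckle, differed by a log2 fold change of -0.03 with the trimmed mean, which did not pass the test, and fell by 0.28 as deposited. SRSF4, SRSF10 and SRSF1 did not pass the test with the trimmed mean either, at log2 fold changes of 0.05 to 0.07, and fell by 0.17 to 0.19 as deposited. SRSF5, SRSF6 and SRSF11 rose with the trimmed mean, at 0.12, 0.28 and 0.15, but were at -0.13, 0.03 and -0.10 as deposited. With the trimmed mean, SRSF5 lost its call without shCtrl library 1, 2 or 3 (limma adjusted p = 0.0508, 0.104 and 0.0889). SRSF11 lost its call without shCtrl library 1, where its log2 fold change was 0.085 (limma adjusted p = 0.117), and without shCtrl library 2, KD library 1 or KD library 3 (limma adjusted p = 0.0886, 0.0885 and 0.0879).

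The TRA2 proteins are relatives of the SR family that bind purine-rich exonic enhancers, and the ratio between the human paralogs changed. TRA2B was at 145, 148 and 157 TPM in shCtrl and at 105, 102 and 102 TPM in KD libraries. Its groups were well separated, with a log2 fold change of -0.29 (SE 0.043, limma adjusted p = 0.00124) and -0.54 as deposited. TRA2A was at 80.1, 81.8 and 82.0 TPM in shCtrl and at 78.2, 74.9 and 78.0 TPM in KD libraries. It rose with the trimmed mean, by a log2 fold change of 0.17 (SE 0.031, limma adjusted p = 0.00317), and was at -0.08 as deposited (limma adjusted p = 0.0792).

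Among the 18 hnRNPs, 13 (72.22%) rose and 2 (11.11%) fell with the trimmed mean, and 3 (16.67%) rose and 7 (38.89%) fell as deposited. With the trimmed mean 28.7% of all genes rose and 25.8% fell, and 45.8% and 24.8% of genes of at least 10 TPM. As deposited the hnRNP shares were near the 16.3% and 40.3% of all genes. Of genes of at least 10 TPM, 26.4% rose and 42.5% fell as deposited. HNRNPA1, which represses exons through UAGG-like elements and competes with SR proteins, was listed at 1205, 1292 and 1168 TPM in shCtrl and at 1643, 1616 and 1679 TPM in KD libraries. All 3 KD libraries were above the shCtrl libraries, and the deposited mean rose 1.35-fold. The log2 fold change was 0.68 (SE 0.033, limma adjusted p = 6.75e-06), and 0.43 as deposited. The 76 annotated copies and pseudogenes of HNRNPA1 summed to 17.6 TPM in shCtrl and 18.9 TPM in KD cells, or 1.44% and 1.15% of the gene.

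HNRNPH1 and HNRNPH2 encode closely related proteins that bind runs of guanosines. Their listed levels moved in opposite directions, with a limit on HNRNPH2 given below. HNRNPH1 was at 631, 683 and 667 TPM in shCtrl and at 486, 466 and 445 TPM in KD libraries. The KD libraries were all lower, with a log2 fold change of -0.25 (SE 0.046, limma adjusted p = 0.00325) and -0.50 as deposited. HNRNPH2 was at 42.6, 45.0 and 42.3 TPM in shCtrl and at 58.8, 59.3 and 61.2 TPM in KD libraries.

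HNRNPH2 was thus higher in every KD library, with a log2 fold change of 0.70 (SE 0.036, limma adjusted p = 8.54e-06) and 0.46 as deposited, the largest rise among the members on both scales. Its value carries a limit, because HNRNPH2 shares 362 exon bases on the same strand with the readthrough gene RPL36A-HNRNPH2. That gene was listed at 455 TPM in shCtrl and 350 TPM in KD cells, far above HNRNPH2 and in the other direction. The split of shared reads between both is uncertain, and whether the rise of HNRNPH2 depends on it was not tested.

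HNRNPM, which binds guanosine and uridine-rich motifs, rose from 243 ± 5.5 to 281 ± 4.39 TPM (SD, n = 3), with a log2 fold change of 0.46 (SE 0.029, limma adjusted p = 2.30e-05) and 0.21 as deposited. HNRNPLL, a paralog of HNRNPL known for its role in CD45 splicing in lymphocytes, was at 20.5, 20.1 and 20.0 TPM in shCtrl and at 12.4, 12.2 and 15.5 TPM in KD libraries. The third KD library was closest to the shCtrl group, but the groups did not overlap. Its log2 fold change was -0.33 (SE 0.088, limma adjusted p = 0.0160), and -0.57 as deposited. Without KD library 1 the limma adjusted p was 0.0506.

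The remaining 13 hnRNPs were not called in one direction under all scalings. HNRNPF, HNRNPAB, HNRNPU, HNRNPUL1, HNRNPR, HNRNPA3, HNRNPC, HNRNPK, HNRNPA0 and HNRNPA2B1 rose with the trimmed mean, with log2 fold changes from 0.11 for HNRNPA2B1 to 0.34 for HNRNPF. As deposited these 10 genes were between -0.14 and 0.09, and HNRNPK and HNRNPA2B1 were called lower. Without shCtrl library 1 or 2, HNRNPA0 lost its call with the trimmed mean (limma adjusted p = 0.0652 and 0.0633), and so did HNRNPA2B1 (limma adjusted p = 0.0830 and 0.0839), whose log2 fold change was 0.070 without shCtrl library 1. HNRNPH3, HNRNPL and HNRNPUL2 did not pass the test with the trimmed mean, at 0.05, -0.05 and -0.13, and were called lower as deposited, at -0.20, -0.30 and -0.37. HNRNPUL2 shares 2391 exon bases with the readthrough gene HNRNPUL2-BSCL2, listed at 18.7 TPM in shCtrl and 18.0 TPM in KD cells.

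PTB proteins bind pyrimidine tracts and repress neighbouring exons, and PTBP3 showed the largest change of any member. PTBP3 (ENSG00000119314, chromosome 9 from 112217716 to 112333667 on the reverse strand in GRCh38) was at 22.8, 22.9 and 21.6 TPM in shCtrl libraries. In KD libraries it was at 7.35, 7.10 and 7.78 TPM. The KD level was 0.330 of the shCtrl level as deposited, and the gap between groups was far wider than the spread within them. The log2 fold change was -1.25 (SE 0.053, limma adjusted p = 4.27e-06), and -1.48 as deposited (SE 0.059, limma adjusted p = 3.59e-06).

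PTBP1, the widely expressed paralog, was at 201, 218 and 207 TPM in shCtrl and at 230, 208 and 225 TPM in KD libraries. KD library 2 lay within the shCtrl range, so the deposited values overlapped. Its log2 fold change was 0.33 (SE 0.043, limma adjusted p = 0.000660) with the trimmed mean and 0.08 as deposited (limma adjusted p = 0.187).

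**Figure D2:**
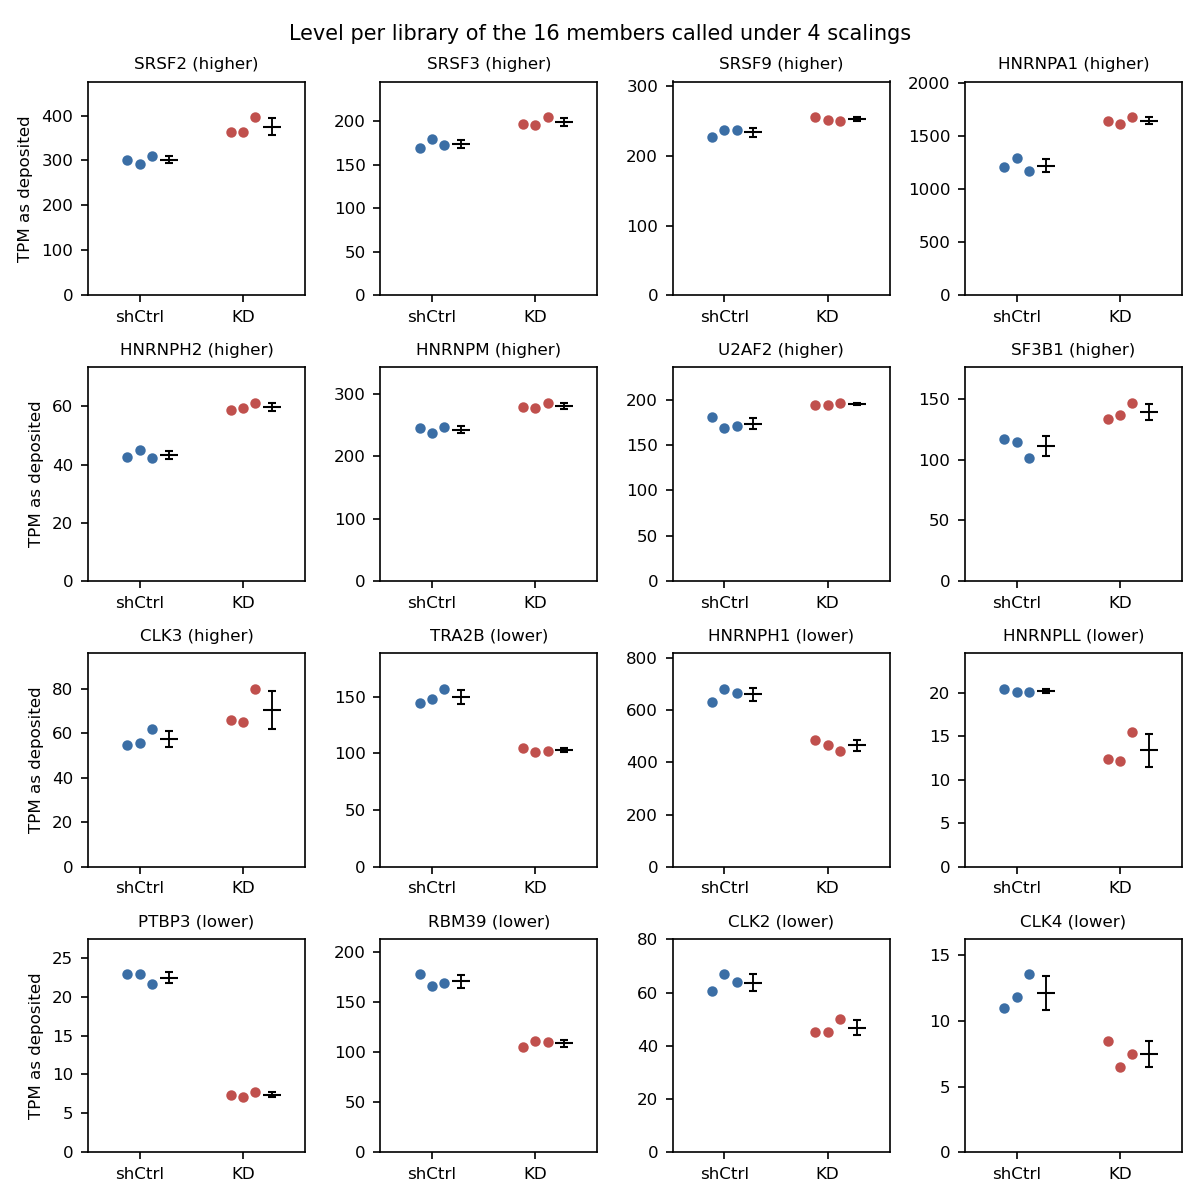
TPM as deposited (y axis, starting at 0) in each library for the 16 members called in 1 direction under all 4 scalings, with shCtrl libraries in blue, GMDS-AS1 KD libraries in red and bars for mean ± SD (n = 3 per group). PTBP3 drops from 21.6 to 22.9 TPM to 7.10 to 7.78 TPM, and HNRNPA1 rises from 1168 to 1292 TPM to 1616 to 1679 TPM.

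Among the factors that define the 3' splice site and the branch point, U2AF2 and SF3B1 rose and RBM39 fell under all scalings. U2AF2, the large U2AF subunit that binds the pyrimidine tract, was at 181, 169 and 171 TPM in shCtrl and at 195, 195 and 197 TPM in KD libraries. The groups did not overlap, and the log2 fold change was 0.42 (SE 0.031, limma adjusted p = 4.74e-05) and 0.17 as deposited. SF3B1, the U2 snRNP subunit at the branch point, was at 117, 115 and 102 TPM in shCtrl and at 134, 137 and 147 TPM in KD libraries.

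All KD values of SF3B1 exceeded the shCtrl values, with a log2 fold change of 0.57 (SE 0.054, limma adjusted p = 0.000141) and 0.32 as deposited. RBM39, a U2AF2-related splicing factor, was at 178, 165 and 169 TPM in shCtrl and at 105, 111 and 110 TPM in KD libraries. Its KD libraries were all lower, with a log2 fold change of -0.39 (SE 0.041, limma adjusted p = 0.000221) and -0.64 as deposited.

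U2AF1, the small subunit that reads the AG at the intron end, had values that depend on a copy. It was at 167 ± 2.14 TPM in shCtrl and 145 ± 3.64 TPM in KD cells (SD, n = 3), with a log2 fold change of 0.04 (limma adjusted p = 0.266) and -0.21 as deposited (limma adjusted p = 0.000971). In the annotation of GRCh38, U2AF1 (chr21:43092956-43107587, reverse strand) has a copy, U2AF1L5 (chr21:6484623-6499261, reverse strand). The copy was listed at 183 ± 1.29 TPM in shCtrl and 175 ± 3.36 TPM in KD cells (SD, n = 3), above U2AF1 itself in both groups. The transcripts U2AF1-203 and U2AF1L5-212, both of 1019 bases, differ at 1 base, A20C, counted from 1 at the 5' end of the transcript with the base of U2AF1 first. Their bases 6 to 34 are shown to make plain how little separates the loci, with the differing base in capitals.
U2AF1-203: ggtgacgtctcccgAgggcgtcggcaggg
U2AF1L5-212: ggtgacgtctcccgCgggcgtcggcaggg
Reads from the rest of these transcripts cannot be assigned to 1 of the loci, so the values of both genes are uncertain. Their sum was 350 ± 1.38 TPM in shCtrl and 320 ± 4.23 TPM in KD cells (SD, n = 3).

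The 4 CLK kinases, which phosphorylate SR proteins and release them from nuclear speckles, divided by direction. CLK3 was at 54.7, 55.7 and 61.7 TPM in shCtrl and at 65.9, 65.2 and 80.0 TPM in KD libraries. KD library 3 stood above the others, and the groups did not overlap. CLK3 rose by a log2 fold change of 0.53 (SE 0.087, limma adjusted p = 0.00204) and 0.29 as deposited (limma adjusted p = 0.0286). As deposited, CLK3 no longer passed the test without shCtrl library 1 (limma adjusted p = 0.0801) or without shCtrl library 2 (limma adjusted p = 0.0775). CLK3 also overlaps EDC3 on the other strand by 701 exon bases, and EDC3 was listed at 19.9 TPM in shCtrl and 13.1 TPM in KD cells.

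CLK2 was at 60.5, 66.8 and 63.8 TPM in shCtrl and at 45.1, 45.3 and 49.97 TPM in KD libraries. CLK4 was at 11.0, 11.8 and 13.6 TPM in shCtrl and at 8.52, 6.54 and 7.47 TPM in KD libraries. Both were lower in every KD library. The log2 fold change was -0.19 for CLK2 (SE 0.053, limma adjusted p = 0.020) and -0.40 for CLK4 (SE 0.11, limma adjusted p = 0.0208), and as deposited -0.44 and -0.63. These calls were the least secure of the 16: CLK2 lost its call without KD library 1 (limma adjusted p = 0.0681) or KD library 2 (limma adjusted p = 0.0634) and with no filter on low values (limma adjusted p = 0.0678). CLK4 lost its call without shCtrl library 3 (limma adjusted p = 0.0506), KD library 2 (limma adjusted p = 0.0625) or KD library 3 (limma adjusted p = 0.0565) and with no filter (limma adjusted p = 0.0682).

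CLK1, whose own RNA is held back in the nucleus with retained introns in many cells, was at 62.8, 63.0 and 64.9 TPM in shCtrl and at 63.2, 60.4 and 58.9 TPM in KD libraries. The deposited values overlapped. It rose by a log2 fold change of 0.18 with the trimmed mean (SE 0.042, limma adjusted p = 0.00911) and was at -0.06 as deposited (limma adjusted p = 0.208).

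Ratios between related members within a library do not depend on the scaling of the library apart from the pseudocount, and 16 such pairs were compared. They are given as descriptions, with no test. The PTBP1 to PTBP3 ratio was 3.16 ± 0.066 on the log2 scale in shCtrl and 4.72 ± 0.058 in KD cells (SD, n = 3), a shift of 1.56. The HNRNPH1 to HNRNPH2 ratio moved from 3.90 ± 0.045 to 2.94 ± 0.092 (SD, n = 3), a shift of -0.96, with the limit on HNRNPH2 given above. HNRNPF, the third relative of that subfamily, gained on HNRNPH1 by 0.60.

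Among the kinases, the CLK2 to CLK3 ratio moved from 0.15 ± 0.11 to -0.57 ± 0.083 (SD, n = 3), so that CLK2 was the higher of the pair in shCtrl libraries and CLK3 in KD libraries. CLK1 gained on CLK4 by 0.56. HNRNPA1 gained on HNRNPA2B1 by 0.57 and on HNRNPA3 by 0.50. In the SR family SRSF3 gained on SRSF7 by 0.47, and TRA2A gained on TRA2B by 0.46.

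Shifts were smaller for U2AF1 to U2AF2 (-0.38), HNRNPUL1 to HNRNPUL2 (0.33), SRSF1 to SRSF9 (-0.29), HNRNPL to HNRNPLL (0.27) and SRSF4 to SRSF6 (-0.22). In these pairs the 3 KD libraries still did not overlap the 3 shCtrl libraries. The U2AF1 to U2AF2 ratio carries the limit of the U2AF1 copy given above. HNRNPUL2 and SRSF1 share exon bases with other genes on their own strand, as given above. SRSF9 overlaps GATC on the other strand by 1729 exon bases. How often other pairs of genes separate in this way was not computed, and the pairs were chosen with earlier results of these data known. SRSF4 to SRSF5 (-0.07) and HNRNPR to HNRNPU (-0.08) overlapped between the groups.

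**Figure D3:**
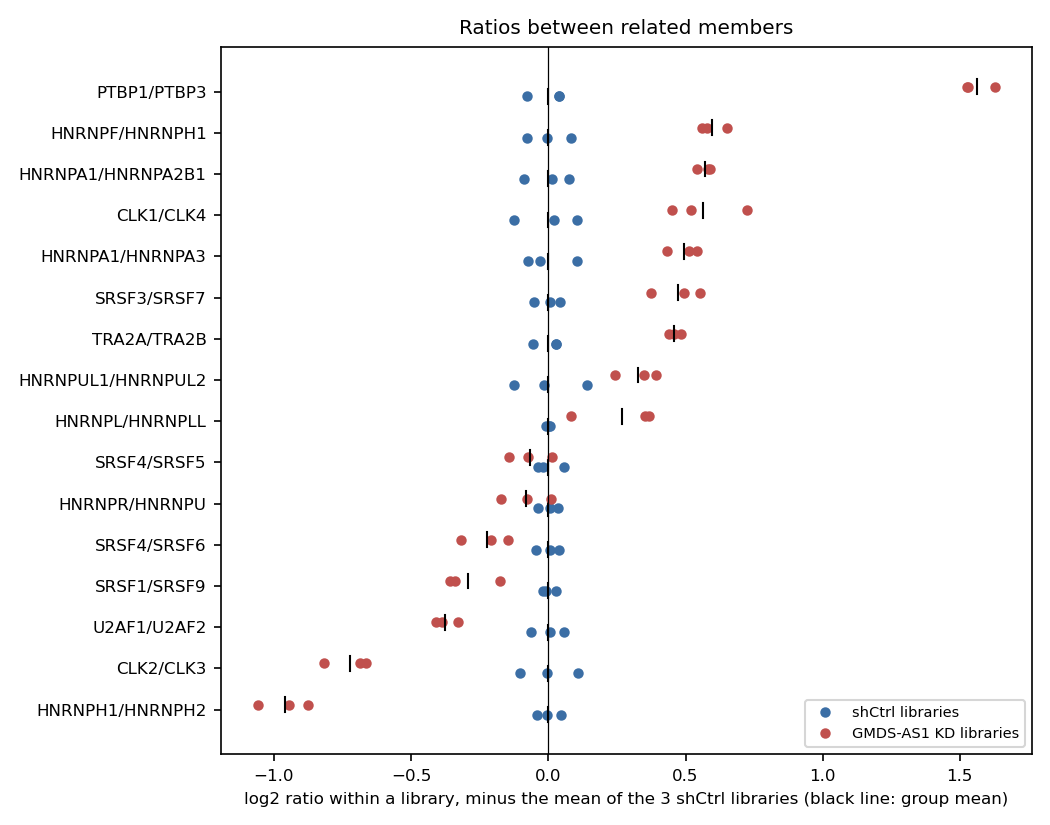
Log2 ratio between related members within each library, minus the mean of the 3 shCtrl libraries (x axis), for 16 pairs (rows), with shCtrl libraries in blue, GMDS-AS1 KD libraries in red and a black line at each group mean. PTBP1/PTBP3 shifts up by 1.56 and HNRNPH1/HNRNPH2 down by 0.96, and only SRSF4/SRSF5 and HNRNPR/HNRNPU overlap between the groups. The split of reads between HNRNPH2 and its readthrough gene is uncertain.

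Promoter sequence was examined for the members, as a description of what those that rose or fell share at their start sites. RefSeq windows on GRCh38.p14, from 250 bases before to 50 bases after a start, were matched for 36 members, in 52 windows, and SRSF2, TRA2A, HNRNPA1 and RBM39 were not matched. The windows of PTBP3 and TRA2B, which fell, and of SRSF3 and U2AF2, which rose, are shown 5' to 3' on the strand of the gene. Capitals mark matches on either strand. The letters searched were GGGCGG for the SP box, which is the binding motif of the Sp family of transcription factors. The CCAAT box, bound by the factor NF-Y, was searched by its own letters. For the ETS family of factors the motif was CCGGAAG, and for the TATA box, bound by the general transcription machinery, it was TATAAA.
PTBP3, chr9:112332977-112333276, reverse strand: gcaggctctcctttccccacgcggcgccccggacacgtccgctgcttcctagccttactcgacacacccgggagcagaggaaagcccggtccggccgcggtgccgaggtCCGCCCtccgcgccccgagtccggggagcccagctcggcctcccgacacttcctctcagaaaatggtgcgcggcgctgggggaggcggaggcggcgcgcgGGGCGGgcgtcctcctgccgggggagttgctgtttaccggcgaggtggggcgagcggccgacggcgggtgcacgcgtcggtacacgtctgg
TRA2B, chr3:185937965-185938264, reverse strand: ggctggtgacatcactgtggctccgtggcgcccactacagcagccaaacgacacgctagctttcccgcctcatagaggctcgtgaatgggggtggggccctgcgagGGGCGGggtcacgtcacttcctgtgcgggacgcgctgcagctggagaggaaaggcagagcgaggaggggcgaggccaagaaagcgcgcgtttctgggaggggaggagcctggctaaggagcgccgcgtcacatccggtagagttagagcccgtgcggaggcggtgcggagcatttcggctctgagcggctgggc
SRSF3, chr6:36594112-36594411, forward strand: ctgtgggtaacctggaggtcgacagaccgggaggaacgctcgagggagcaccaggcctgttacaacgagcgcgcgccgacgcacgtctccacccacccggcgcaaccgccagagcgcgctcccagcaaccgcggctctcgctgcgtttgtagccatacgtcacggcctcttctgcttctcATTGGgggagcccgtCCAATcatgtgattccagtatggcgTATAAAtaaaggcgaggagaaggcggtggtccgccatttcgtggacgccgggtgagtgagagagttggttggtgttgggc
U2AF2, chr19:55654785-55655084, forward strand: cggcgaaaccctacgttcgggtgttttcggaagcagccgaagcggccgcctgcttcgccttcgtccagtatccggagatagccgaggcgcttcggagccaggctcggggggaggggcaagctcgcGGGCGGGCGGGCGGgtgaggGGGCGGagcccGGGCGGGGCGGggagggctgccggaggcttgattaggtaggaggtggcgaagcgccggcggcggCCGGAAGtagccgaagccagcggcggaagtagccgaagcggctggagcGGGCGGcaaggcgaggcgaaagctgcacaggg
PTBP3 holds 2 SP boxes and TRA2B holds 1, and neither has a CCAAT, ETS or TATA match. SRSF3 holds no SP box but 2 CCAAT matches and a TATA match, and U2AF2 holds 7 SP boxes, some of which overlap, and 1 ETS match. The shown windows do not stand for their direction. The window of HNRNPLL, which fell, has SP, CCAAT and ETS matches, and that of HNRNPH2, which rose, has SP and CCAAT matches.

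Over the members, the SP box was present in 34 of 52 windows (65.38%), compared with 44.95% of the 35116 windows of all genes. CACGTG, the E-box, was present in 17.31% of member windows and 7.26% of all windows, and CCAAT in 40.38% and 34.61%. GCGCATGC (NRF1) was present in 7.69% and 3.05%, CCGGAAG in 13.46% and 10.26%, and TATAAA in 9.62% and 11.53%. TGANTCA (AP-1), TGACGTCA (CRE) and AAGATGGC (YY1) were in none of the 52 member windows and in 7.71%, 1.85% and 2.89% of all windows. Among the matched members called under all scalings, 7 that rose and 6 that fell, the SP box was in 3 and 6, the E-box in 3 and 2, CCAAT in 3 and 2, the ETS motif in 2 and 1, the NRF1 motif in 0 and 1, and the TATA box in 1 and 0. These are matches of letters, with several windows for some genes, and the base composition of the windows was not compared.

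The genes of the wider splicing machinery were counted next to the members. Of 129 genes in 9 lists, 127 were tested, and 70 rose and 15 fell with the trimmed mean, while 39 rose and 39 fell as deposited. Under all 4 scalings 39 (30.71%) rose and 15 (11.81%) fell, compared with 22.5% and 17.5% of the 40 members. Over all genes tested, 16.3% rose and 25.8% fell under the 4 scalings. Of genes of at least 10 TPM, 26.4% rose as deposited and 24.8% fell with the trimmed mean. The counts by list given below are to be read beside these shares. The median log2 fold change of the list genes was 0.24 with the trimmed mean and -0.0048 as deposited. Changes of at least 2-fold were called for SF3A1, SF3A2, SF3A3 and RBM22, among others.

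The U2 snRNP, in which the member SF3B1 sits, had 7 of 14 genes higher and 2 lower under all scalings. SF3A3 was at 32.9, 33.1 and 32.3 TPM in shCtrl and at 73.7, 73.5 and 77.4 TPM in KD libraries. Every subunit of SF3A, the complex that joins SF3B on the U2 snRNP, rose beyond its spread, with log2 fold changes of 1.41 for SF3A3, 1.15 for SF3A1 and 1.04 for SF3A2. SF3B1, by comparison, rose by 0.57.

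In the U4/U6.U5 tri-snRNP 9 of 16 genes rose and 2 fell under all scalings. SNRNP27, a tri-snRNP component, rose by a log2 fold change of 0.87. PRPF31, which binds the U4 snRNP and is needed to form the tri-snRNP, fell by 0.96, from 81.4 to 34.9 TPM on average. Among the Sm core proteins, the ring on spliceosomal snRNAs, 4 of 7 tested genes rose and none fell, with SNRPD1 at 0.68 and SNRPB at 0.55. Among U1 snRNP genes 3 of 8 rose and none fell, with SNRPC at 0.60 and PRPF39 at 0.56, and among LSm genes 3 of 7 rose and 1 fell, with LSM7 and LSM3 at 0.67 each.

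In the PRP19 complex and catalytic factors 1 of 19 rose and 3 fell under all scalings, with RBM22, which contacts the catalytic RNA core, and the second-step factor PRPF18 among the latter. RBM22 fell by 1.48 and PRPF18 fell by 0.70 on the log2 scale. Among kinases and import factors of SR proteins other than the CLKs, 1 of 5 rose and 2 fell. DYRK1A was at 25.9, 24.8 and 26.7 TPM in shCtrl and at 10.7, 10.2 and 10.4 TPM in KD libraries, and it fell by 1.00 on the log2 scale. SRPK2, which phosphorylates SR proteins in the cytoplasm, fell by 0.62.

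Among 36 other tested regulators 8 rose and 3 fell under all scalings, with NONO, a paraspeckle protein, at 0.86 and ESRP1, an epithelial splicing regulator, at -0.74. In the exon junction complex and nonsense-mediated decay list 3 of 15 rose and 2 fell. UPF2, a decay factor that binds UPF1, rose by a log2 fold change of 0.48. By RNA pull-down the study identified the proteins HuR and SRSF1 as partners of GMDS-AS1. It set SRSF1 aside because depleting it left STAT3 expression unaffected. ELAVL1 encodes HuR, the RNA-binding protein on which the study then focused. Its RNA was at 47.5 ± 1.43 TPM in shCtrl and 58.1 ± 2.41 TPM in KD cells (SD, n = 3). The log2 fold change was 0.53 (limma adjusted p = 4.87e-05), and 0.28 as deposited. By RT-qPCR the study reported that silencing GMDS-AS1 did not meaningfully change HuR mRNA, which differs from this rise. It reported less HuR protein by immunoblot, which RNA levels do not measure.

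**Figure D4:**
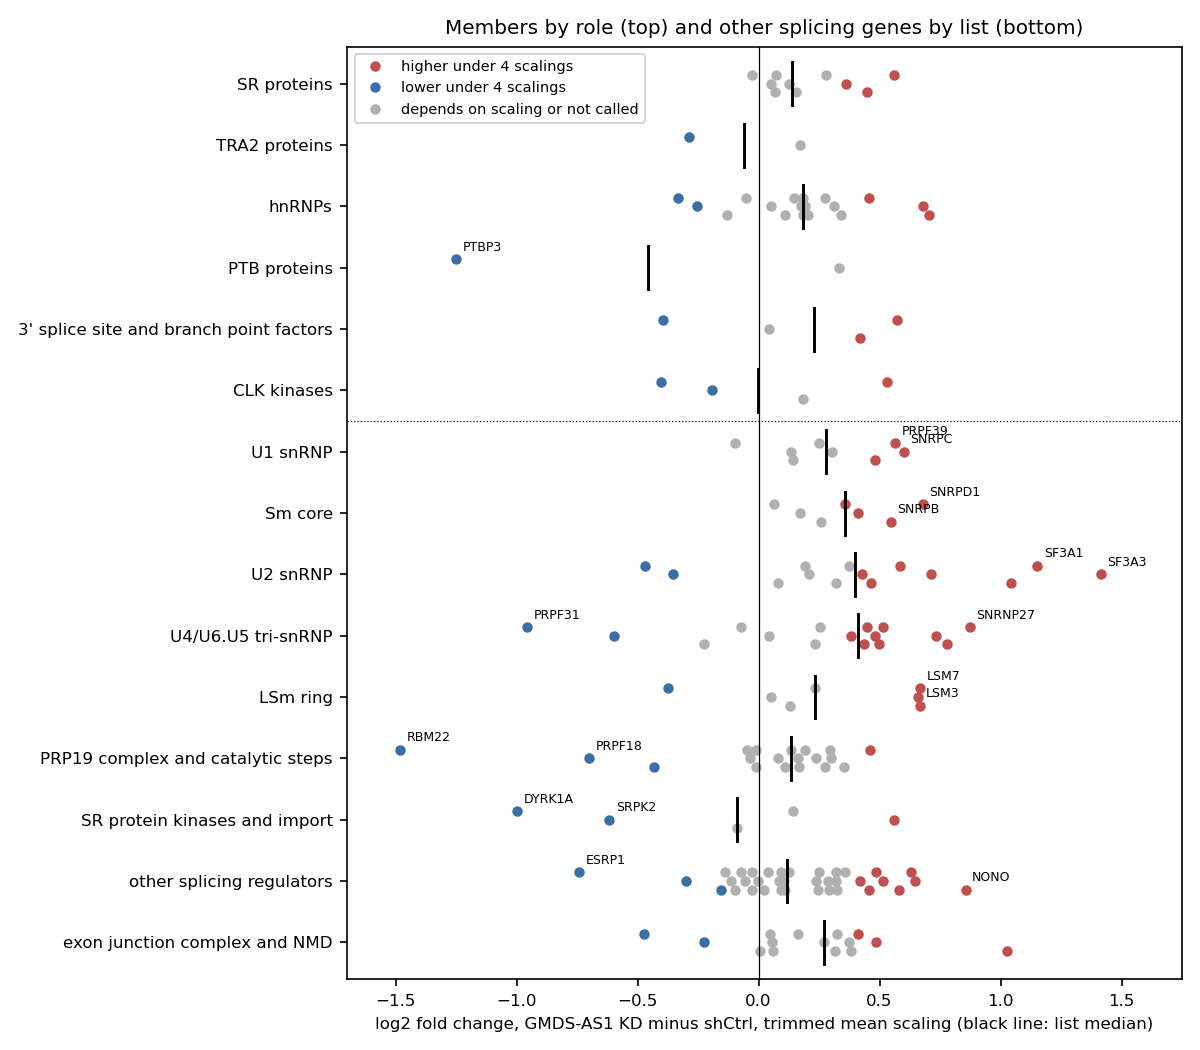
Log2 fold change in GMDS-AS1 KD against shCtrl cells with the trimmed mean scaling (x axis), one point per gene, for the 40 members by role (above the dotted line) and the 127 tested genes of the 9 lists (below), with a black line at each list's median. Red and blue mark genes that rose or fell under all 4 scalings, and PTBP3, RBM22 and the SF3A genes lie farthest from 0.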

How the data were processed

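Poly-A selected RNA of HCT116 cells was measured in 3 shCtrl and 3 GMDS-AS1 KD libraries, grouped by the sample titles. The authors deposited TPM per gene. Their methods name Cufflinks 2.2.1 and RSEM 1.3.1, and the submitters' processing notes name Trimmomatic 0.27, TopHat2 2.1.1 and GRCh38.p13. Which of these made the TPM is not stated, nor how reads shared between copies were split. The annotation and the use of strand in counting are not given in the sources used here, so a gene and an overlapping gene on the other strand may share reads.

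Values were read for 60662 genes, and 2 genes with broken lines were left out. Genes were tested if 3 or more libraries reached 0.5 TPM. Libraries were scaled by a trimmed mean of log ratios on TPM (30% of the ratios and 5% of the mean values trimmed, unweighted), and log2(TPM + 1) was compared in R 4.3.3 by limma 3.58.1, using a variance trend and Benjamini-Hochberg adjustment over 16901 genes. Fold changes on this scale understate the change of low genes. Alternatives were TPM as deposited, upper quartile and median of ratios scaling, a pseudocount of 0.1, a filter of 1 TPM in every library, no filter, no variance trend, the replicate block and leaving out each library. Calls required under all 4 scalings and the background of genes of at least 10 TPM were added after seeing the data.

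The members, roles, lists and pairs were chosen with earlier results of these data known. Values by library are given for the 2 largest rises and falls called in each role, members changed at least 2-fold and SRSF1, and list genes are the 2 largest called changes of at least 5 TPM without overlap. SF3A2 falls outside this rule and was named after its values were seen, and 1 gene under the rule is not reported here. Positions come from GENCODE v29. Motifs and pair ratios were computed in Python 3.11.15. The labels call the libraries biological replicates without naming separate transductions, so p-values measure the spread between these libraries.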

Additional observations from a re-analysis of the deposited data

How the results depend on the processing

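The scaling moved the counts most. With TPM as deposited, 9 members rose and 18 fell, and over all genes 2756 rose and 6814 fell, against 4844 and 4355 with the trimmed mean. With upper quartile scaling 16 members rose. The direction of 16 members reversed with TPM as deposited. Their log2 fold changes were -0.180 for SRSF1, -0.194 for SRSF4, -0.125 for SRSF5, -0.174 for SRSF10, -0.0952 for SRSF11, -0.0777 for TRA2A, -0.0966 for HNRNPA0, -0.140 for HNRNPA2B1, -0.0645 for HNRNPA3, -0.0656 for HNRNPC, -0.197 for HNRNPH3, -0.0752 for HNRNPK, -0.055 for HNRNPR, -0.0457 for HNRNPUL1, -0.207 for U2AF1 and -0.0630 for CLK1. With upper quartile scaling 5 reversed, to -0.0242 for SRSF1, -0.0395 for SRSF4, -0.0189 for SRSF10, -0.0413 for HNRNPH3 and -0.0514 for U2AF1. U2AF1 was at -0.0054 with the filter of 1 TPM in every library, and SRSF7 at 0.00468 with no filter. For SRSF7, leaving out single libraries gave -0.0707 to 0.00616, the highest without KD library 3.

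Fits that each left out 1 library gave 21 to 25 members higher and 5 to 8 lower, and 4196 to 4446 genes higher and 3630 to 3956 lower. Under all 4 scalings it gave 8 to 9 members higher and 5 to 8 lower. HNRNPL without shCtrl library 2 and HNRNPUL2 without shCtrl library 1 were then called lower as well. Replicate numbers did not pair the libraries, with correlations of deviations of 0.029, -0.038 and 0.014 for numbers 1, 2 and 3. With the replicate block 24 members rose and 7 fell, and 39 of 40 kept their call, while SRSF11 was at an adjusted p of 0.0528 from limma. The lack of read totals and transcript-level values limits what can be said of each member.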
